A study of Mus musculus with 36 samples.

Results

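The comparison asks how the effect of deleting the microRNA gene Mir324 differs between bone-forming and bone-resorbing cultures of mouse cells. The quantity tested is the genotype effect in osteoblast (OB) cultures minus the genotype effect in osteoclast (OC) cultures, and a positive value means a more positive effect in OB. It rests on 24 of the 36 RNA-seq libraries, chosen by their labels alone, with 6 libraries in each of WT OB, null OB, WT OC and null OC. WT stands for the label wild-type control and null for Mir324-null, and all cells came from the long bones of mice aged 20 weeks. The OB cells grew out of digested bone chips and then spent 18 days in osteogenic medium, which held ascorbic acid (50 µg/mL) and β-glycerophosphate (2 mM). The OC cultures began as marrow cells expanded in M-CSF and then spent 5 days with RANK-L (50 ng/mL) beside M-CSF (30 ng/mL). The other 12 libraries are bone marrow macrophages (BMM), 6 of each genotype, kept for 5 days with M-CSF alone (30 ng/mL), and they enter below only as a description. Cell type, tissue of origin, medium and days in culture differ together between OB and OC and cannot be told apart. The labels used here do not name the mouse, sex or batch of a library or say how the null allele was made, so p-values measure the spread between these libraries, which may in part be technical.

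Osteoclasts form by fusion of cells of the monocyte and macrophage lineage under M-CSF and RANK-L. They attach to bone through podosomes and integrins, acidify it with a proton pump, the V-ATPase, and digest its matrix with proteases such as cathepsin K. Osteoblasts are mesenchymal cells that lay down collagen and mineralise it. A microRNA guides a silencing complex to transcripts that pair with its seed, bases 2 to 8 of the mature strand. The mature strands of miR-324, read here from RefSeq (GRCm38.p6), are shown because they are what the null cells lack, with the seed in capitals. The hairpin lies at chr11:70012043-70012131, plus strand, and its own transcript was not analysed here. The genotype labels therefore have no check at the deleted gene.
miR-324-5p: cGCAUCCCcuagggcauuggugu
miR-324-3p: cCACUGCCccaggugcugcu

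The libraries held 14118972 to 26347581 estimated counts each, and 14062 genes were tested. Spread between libraries was larger in null than in WT groups, with a biological coefficient of variation of 12.8% in WT OB, 18.2% in null OB, 9.42% in WT OC and 20.6% in null OC. Levels below are CPM, that is, each library's counts after TMM scaling to one size. In WT OC the 10 osteoclast markers summed to 30400 to 32900 CPM, against 434 to 800 CPM in null OC, where Calcr was at 0, so the cultures labelled null OC carried few of the defining transcripts of their label. The 10 macrophage markers summed to 12200 to 14300 CPM in WT OC and 49700 to 61200 CPM in null OC. The OB cultures were mixed by these markers. Their 10 osteoblast markers summed to 55100 to 79500 CPM in WT and 98400 to 117000 CPM in null, and they also held osteoclast markers (4210 to 5340 CPM in WT, 5030 to 7890 CPM in null) and macrophage markers (12400 to 15700 CPM in WT, 6890 to 10000 CPM in null). Lyz2 was most of the macrophage sum in OB too, with a mean of 11230 CPM in WT and 6399 CPM in null. In OC cultures the osteoblast marker sum was 13.3 to 15.5 CPM in WT and 57.4 to 277 CPM in null. Neutrophil and lymphocyte markers summed to at most 8.18 and 2.33 CPM in any of the 24 libraries, and adipocyte markers to at most 18.5 CPM. The endothelial markers summed to 77.4 to 275 CPM across the 4 groups. Of the 5 markers in each of these sums, 1 neutrophil, 2 lymphocyte, 1 adipocyte and 2 endothelial markers (Pecam1 and Kdr) were tested. In such bulk cultures fewer cells of a type and less RNA per cell cannot be told apart, and the part these marker levels have in the results below was not tested.

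**Figure D1:**
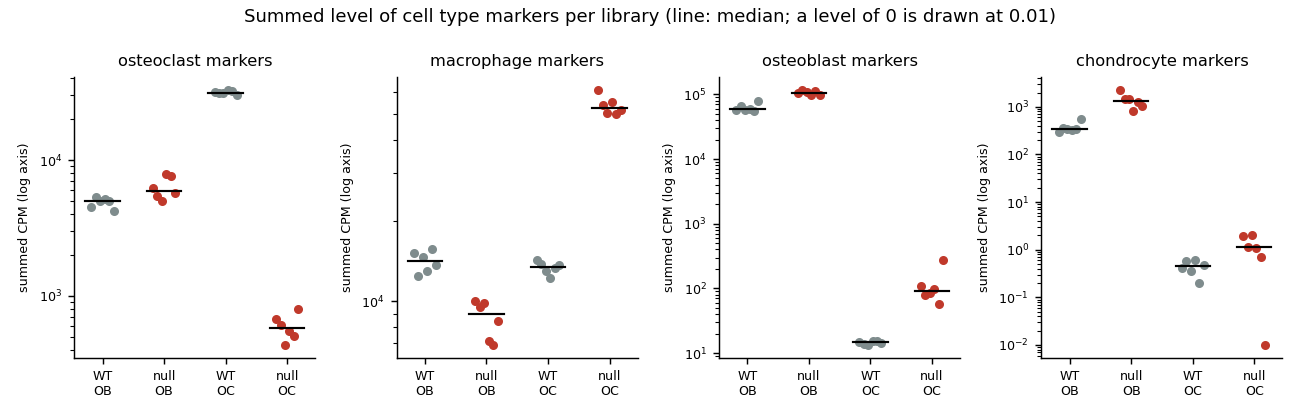
Summed CPM of the cell type markers (log axis) in each of the 24 libraries by group, with lines at the medians. The osteoclast sum drops from about 31400 CPM in WT OC to 578 CPM in null OC while the OB groups stay near 5000 and 5960 CPM; the macrophage sum is lower in null OB and higher in null OC; 1 null OC library with a chondrocyte sum of 0 is drawn at 0.01.

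The genotype effect differed between the cultures for most genes tested. The interaction passed an adjusted p of 0.05 for 7920 genes (56.3% of those tested), 3724 of them more positive in OB (26.5%) and 4196 more negative (29.8%). The null effect passed in OB for 3981 genes (28.3%), with 1893 higher (13.5%) and 2088 lower (14.8%), and in OC for 8757 genes (62.3%), with 4695 higher (33.4%) and 4062 lower (28.9%). Only OB passed for 1200 genes (8.53%) and only OC for 5976 (42.5%). Of the 2781 genes past the threshold in both cultures (19.8%), 1774 had opposite signs, which is 63.8% of them. All 1774 also passed the interaction test, in which effects of opposite sign add up. These split into 785 genes that were higher in null OB and lower in null OC (5.58% of all tested) and 989 that were lower in null OB and higher in null OC (7.03%). The same sign in both cultures was found for 1007 genes (7.16%), 443 of them higher (3.15%) and 564 lower in null (4.01%), and 418 of these also passed the interaction test (2.97%). Effects were smaller in OB, with a median absolute log2 fold change of 0.21 over all genes against 0.50 in OC, and a change of at least 2-fold in both cultures was seen for 36 (0.256%) and 35 (0.249%) genes of the opposite classes and 31 genes of the same sign. The classes are defined by these calls, so their own fold changes are given as a description.

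**Figure D2:**
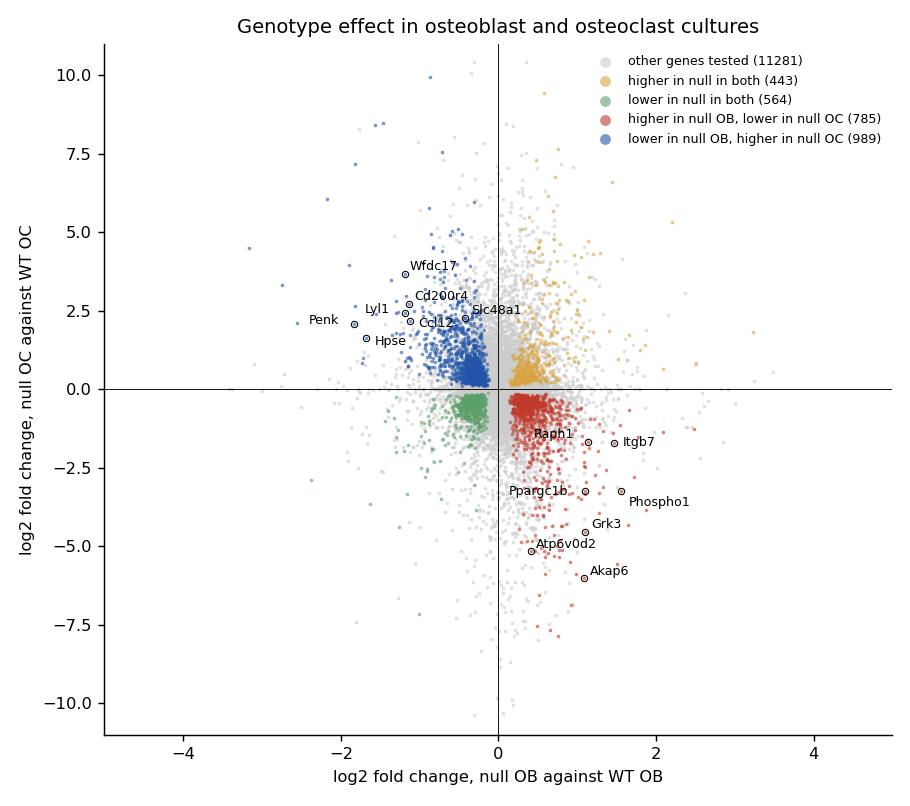
Log2 fold change of null against WT in OB cultures (x axis) and OC cultures (y axis), 1 point per gene tested and 9 genes outside the plotted range. The 785 genes higher in null OB and lower in null OC fill the lower right and the 989 genes with the reverse pattern the upper left; the vertical spread exceeds the horizontal spread.

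The OB effect moved with transcript length and the OC effect did not. Across the 14062 genes, Spearman's correlation of the log2 fold change with transcript length was 0.523 in OB and 0.014 in OC, given without a p because genes share libraries. The shortest of 20 equal groups of genes (median 627 bases) had a median log2 fold change of -0.34 in OB and -0.19 in OC, and the longest (median 7386 bases) had 0.38 in OB and 0.00 in OC. Genes higher in null OB and lower in null OC had a median length of 4118 bases, and genes with the reverse pattern 1577 bases, against 2428 bases over all genes tested. With an offset that takes out the trend of every library with length and base composition (the length and GC offset), 2010 genes differed in OB, and the opposite classes held 397 and 694 genes, 74.8% of the 1459 called in both cultures. Of the original classes, 313 of 785 genes (39.9%) and 523 of 989 (52.9%) stayed in their class. Whether the trend arises in the cells or in the libraries was not tested, and list counts of 3 or more given below are followed by the offset value where it moves them by over 1.5 times.

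**Figure D3:**
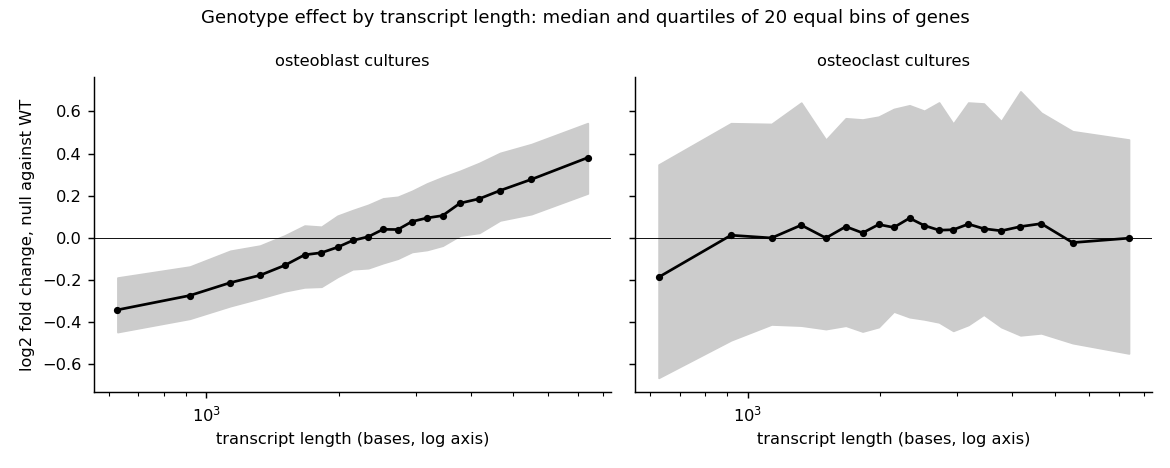
Log2 fold change of null against WT by transcript length (bases, log axis) in OB (left) and OC (right); points are medians of 20 equal groups of genes and the band spans the quartiles. The OB median climbs from -0.34 to 0.38 while the OC median stays close to 0 beyond the shortest genes.

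Of the genes higher in null OB and lower in null OC, 16.7% were higher in WT OB than in WT OC, against 53.3% of all genes tested, so most of the class had its higher WT level in OC. The 12 leading genes, ranked by the smaller of their absolute changes among genes with a mean of at least 10 CPM, were Phospho1, Itgb7, Raph1, Grk3, Ppargc1b, Akap6, Prdm1, Kbtbd11, Hspg2, Slc26a2, Fnbp1l and Pcdhgc5. Their absolute log2 fold changes ran from 0.85 to 1.56 in OB and from 1.07 to 6.88 in OC. In OC the WT and null libraries did not overlap for any of the 12, and in OB they overlapped for Kbtbd11 only. The ranking by size of change favours such separation, so it is given as a description. How often it occurs over all genes tested was not counted. Pcdhgc5 belongs to a protocadherin cluster whose members share exons, so its estimated counts are uncertain.

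Phospho1 encodes a phosphatase of matrix vesicles that starts mineralisation (chromosome 11, 95824499 to 95832140, plus strand). It had 11.3 to 21.8 CPM (median 14.9) in WT OB and 30.1 to 62.3 CPM (median 44.5) in null OB. In OC it had 132 to 166 CPM (median 158) in WT and 11.3 to 29.2 CPM (median 14.2) in null. All null OB libraries lay above all WT OB libraries and all null OC libraries below all WT OC libraries, so that null OB ended above null OC where WT OB had been far below WT OC. The OB change was 1.56 (SE 0.20, adjusted p 6.81e-06), the OC change -3.24 (SE 0.21, adjusted p 2.20e-12), and their difference 4.80 (SE 0.29, adjusted p 9.53e-13).

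Itgb7, an integrin chain of leukocytes, ran from 1.10 to 2.46 CPM in WT OB and from 2.61 to 8.72 CPM in null OB, and from 52.5 to 62.0 CPM in WT OC and 12.7 to 19.5 CPM in null OC. The OB level was low in both genotypes, and the difference of effects was 3.16 (SE 0.30, adjusted p 2.03e-09). Raph1, or lamellipodin, which promotes actin growth at the leading edge, rose from 41.1 ± 4.06 to 90.6 ± 25 CPM in OB (mean ± SD, n = 6 throughout) and fell from 112 ± 8.27 to 35.0 ± 3.88 CPM in OC. Grk3, a kinase of G protein-coupled receptors, had 11.8 to 15.5 CPM (median 14.6) in WT OB and 23.4 to 42.3 CPM (median 28.8) in null OB, and 159 to 198 CPM (median 167) against 4.35 to 9.90 CPM (median 7.99) in OC. Its 2 genotypes were thus separated in both cultures, with the order reversed (OB 1.10 (SE 0.15, adjusted p 7.40e-06), OC -4.54 (SE 0.17, adjusted p 6.99e-18)).

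Regulators of osteoclast metabolism and fate stood among these leaders. Ppargc1b, a coactivator of mitochondrial biogenesis, had 6.16 to 10.2 CPM (median 7.70) in WT OB against 11.4 to 23.1 CPM (median 15.1) in null OB, and 71.1 to 89.6 CPM (median 72.2) in WT OC against 5.50 to 10.5 CPM (median 8.11) in null OC. Prdm1, the repressor Blimp1 that silences inhibitors of osteoclast formation, had 7.95 to 10.7 CPM (median 10.2) and 12.6 to 29.6 CPM (median 18.6) in WT and null OB. In OC it fell from 49.0 ± 5.53 to 4.27 ± 1.59 CPM, and the difference of effects was 4.55 (SE 0.29, adjusted p 6.74e-13). For both genes the null OB levels lay between those of WT OB and WT OC. Slc26a2, a sulfate transporter needed for proteoglycan sulfation, rose from 45.7 ± 8.34 to 85.4 ± 9.02 CPM in OB and fell from 77.1 ± 6.66 to 36.6 ± 3.63 CPM in OC. Hspg2, the basement membrane proteoglycan perlecan, was mainly an OB transcript, at 69.2 ± 10.8 and 129.5 ± 7.90 CPM there, with 3.43 ± 0.872 and 0.349 ± 0.544 CPM in OC. DESeq2 gave its OB change an adjusted p of 0.140. Akap6, an anchoring protein for protein kinase A, rose from 6.24 ± 0.761 to 13.3 ± 2.40 CPM in OB and fell from 82.5 ± 11.4 to 1.26 ± 0.884 CPM in OC. Kbtbd11, at 58.8 ± 11.2 CPM in WT OC, was 0.458 ± 0.522 CPM in null OC. Fnbp1l, an F-BAR protein of membrane curvature and actin assembly, rose from 24.4 ± 1.87 to 44.5 ± 5.23 CPM in OB and fell from 135 ± 8.95 to 29.0 ± 5.79 CPM in OC.

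The promoter windows of the first 2 leaders of each opposite class with an entry in the RefSeq table (GRCm38.p6, 250 bases before to 50 after the start) were searched on both strands for TGANTCA (AP-1), CACGTG (an E-box), GGAAAA (NFAT core) and GAGGAA (PU.1 core), since these factors act in osteoclasts and macrophages. Matches are in capitals and describe letters only. Phospho1 (chr11:95824250-95824549, plus strand) held 1 AP-1 and 1 E-box match, Itgb7 (chr15:102231886-102232185, minus strand) 1 PU.1 core, Wfdc17 (chr11:83703806-83704105, plus strand) 1 NFAT and 1 PU.1 core, and Hpse (chr5:100719667-100719966, minus strand) none of the 4.
Phospho1: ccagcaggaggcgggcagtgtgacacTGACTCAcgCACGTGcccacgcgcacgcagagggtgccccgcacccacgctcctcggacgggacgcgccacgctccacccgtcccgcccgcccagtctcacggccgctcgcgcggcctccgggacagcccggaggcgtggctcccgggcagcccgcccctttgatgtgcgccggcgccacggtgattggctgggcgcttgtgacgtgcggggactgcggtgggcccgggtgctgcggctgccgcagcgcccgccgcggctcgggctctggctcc
Itgb7: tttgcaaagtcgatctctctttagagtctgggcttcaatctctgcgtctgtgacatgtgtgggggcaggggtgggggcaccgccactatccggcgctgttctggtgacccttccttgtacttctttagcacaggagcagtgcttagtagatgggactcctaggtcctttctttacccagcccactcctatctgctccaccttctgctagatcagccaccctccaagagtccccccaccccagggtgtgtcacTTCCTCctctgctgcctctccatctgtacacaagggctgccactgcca
Hpse: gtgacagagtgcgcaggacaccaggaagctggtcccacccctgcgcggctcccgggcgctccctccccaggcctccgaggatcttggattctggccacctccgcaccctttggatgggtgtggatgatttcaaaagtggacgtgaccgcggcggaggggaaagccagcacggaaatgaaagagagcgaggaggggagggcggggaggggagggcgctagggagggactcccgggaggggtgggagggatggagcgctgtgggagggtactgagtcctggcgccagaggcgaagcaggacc
Wfdc17: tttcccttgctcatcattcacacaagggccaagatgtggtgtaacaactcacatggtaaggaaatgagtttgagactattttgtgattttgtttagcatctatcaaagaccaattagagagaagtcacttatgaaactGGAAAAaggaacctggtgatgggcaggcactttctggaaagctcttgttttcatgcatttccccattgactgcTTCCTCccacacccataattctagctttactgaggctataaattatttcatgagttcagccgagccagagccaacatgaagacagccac

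Of 610 promoters of genes higher in null OB and lower in null OC, 7.21% held the AP-1 letters, 11.3% the E-box, 23.4% the NFAT core and 25.9% the PU.1 core. Of 794 promoters of the reverse class the shares were 6.30%, 11.1%, 22.7% and 30.9%. Over 10673 promoters of genes tested they were 5.15%, 10.1%, 21.1% and 26.8%, and over all 27025 promoters listed, 7.93%, 7.24%, 23.6% and 28.3%. The shares of the 2 classes thus lay within a few percentage points of each other and of all genes tested.

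Genes of osteoclast formation and bone resorption were lower in null OC almost throughout, and a part of them was higher in null OB. Over all genes tested, 13.5% were higher and 14.8% lower in null OB, and 33.4% were higher and 28.9% lower in null OC. List counts here and below are to be read beside these shares and those of the opposite classes, 5.58% and 7.03%. Of 16 formation genes, 14 were lower and 1 higher in null OC and 9 were higher and 2 lower in null OB, and 9 were in the class, against 5.58% of all genes tested. Their median log2 fold change was 0.41 in OB and -3.54 in OC, where all genes tested had 0.01 and 0.02. Of 14 resorption genes, 13 were lower in null OC and none was higher, 4 were higher and 1 lower in null OB, and 4 were in the class, with medians of 0.21 and -2.71. The 4 were Mmp9, Atp6v0d2, Snx10 and Slc4a2.

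Itgb3, the β3 chain of the osteoclast vitronectin receptor, had 49.3 to 68.8 CPM (median 61.2) in WT OB and 81.8 to 128 CPM (median 102) in null OB, and 427 to 579.9 CPM (median 480.4) in WT OC and 10.6 to 15.7 CPM (median 11.8) in null OC. Neither culture's genotypes overlapped (OB 0.77 (SE 0.11, adjusted p 1.33e-05), OC -5.33 (SE 0.13, adjusted p 2.04e-21)). Siglec15, a sialic acid receptor that pairs with DAP12 in osteoclasts, had 2.00 to 4.57 CPM (median 2.90) and 4.13 to 6.79 CPM (median 4.98) in WT and null OB, which overlapped, and 29.7 to 34.6 CPM (median 31.4) against 0 to 0.287 CPM (median 0.142) in OC. Dnmt3a, a DNA methyltransferase that silences anti-osteoclast genes, rose from 54.5 ± 6.48 to 78.5 ± 12.7 CPM in OB and fell from 442 ± 26.4 to 74.1 ± 6.02 CPM in OC; its OB call was lost with the offset for average transcript length.

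Of the resorption genes, Mmp9, a gelatinase of osteoclasts, had 765 to 1066 CPM (median 893) in WT OB and 1072 to 2048 CPM (median 1292) in null OB, and 6014 to 7971 CPM (median 6751) against 208 to 336 CPM (median 268) in OC. The lowest null OB library thus lay just above the highest WT OB library. Atp6v0d2, the V-ATPase subunit enriched in osteoclasts, had 175 to 229 CPM (median 211) in WT OB against 226 to 333 CPM (median 264) in null OB, and fell in OC from 1488 ± 59.9 to 41.6 ± 6.88 CPM. It had the third smallest interaction p, with a difference of effects of 5.57 (SE 0.14, adjusted p 1.07e-20). Slc4a2, the bicarbonate exchanger of the resorbing cell, rose from 77.0 ± 8.61 to 112 ± 12.6 CPM in OB and fell from 582 ± 34.8 to 51.4 ± 4.63 CPM in OC. Snx10, a sorting nexin needed for acid secretion, had an OB change of 0.33 (SE 0.07, adjusted p 0.00145) and an OC change of -1.91 (SE 0.07, adjusted p 7.43e-18). Ctsk and Acp5, which define the osteoclast, were not in the class. Ctsk had 1744 to 2149 CPM (median 2040) in WT OB and 1995 to 2906 CPM (median 2414) in null OB (adjusted p 0.418), and the OB change of Acp5 was 0.11 (SE 0.15, adjusted p 0.643). In OC, Ctsk fell by 7.38 and Acp5 fell by 6.15 on the log2 scale. All genes of the osteoclast marker sum are members of the formation or resorption list, so the sum is not separate from them. It moved the same way as this group in both cultures, with overlapping ranges in OB, and its part in these calls was not tested.

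Podosome and actin genes were mostly lower in null OC, whereas integrins were split there. Of 18 podosome and actin genes, 10 were higher and none lower in null OB (3 lower without WT OB replicate 4), 3 were higher and 13 lower in null OC, and 9 were in the class, with medians of 0.30 and -0.68. Of 16 integrins, 7 were higher and none lower in null OB, 9 were higher and 6 lower in null OC, and 5 were in the class, with medians of 0.16 and 0.38. With the length and GC offset 3 integrins were higher in null OB and 3 were in the class. Itgav, the αv partner of the β3 chain, had 122 to 151 CPM (median 143) in WT OB and 212 to 254 CPM (median 238) in null OB, against 669 to 809.7 CPM (median 707) and 105 to 143 CPM (median 132) in OC. Genotypes were separated in both cultures. Myo10, a myosin of filopodia, rose from 105 ± 8.89 to 179 ± 7.13 CPM in OB and fell from 353 ± 32.0 to 139.9 ± 3.08 CPM in OC. Cttn, the podosome protein cortactin, went from 293 ± 17.0 to 377 ± 24.9 CPM in OB and from 118 ± 5.11 to 21.1 ± 3.25 CPM in OC. Dock5, an exchange factor for Rac that organises podosomes, had changes of 0.76 (SE 0.11, adjusted p 9.64e-06) in OB and -2.54 (SE 0.11, adjusted p 6.02e-17) in OC, and Myo1e had 0.52 and -0.94. Itga4, the partner of Itgb7, had an OB change of 0.34 (SE 0.08, adjusted p 0.00223), lost with the length and GC offset.

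Enzymes of mitochondrial fuel use gave a split picture. All 14 TCA cycle and ketone body enzymes were lower in null OC, 4 of them were higher in null OB and none lower, and those 4, Cs, Ogdh and Bdh1 among them, were in the class; without WT OB replicate 5 the count was 2. Bdh1, which interconverts ketone bodies, fell in OC from 283 ± 12.1 to 19.8 ± 1.57 CPM and rose in OB from 9.83 ± 1.42 to 15.3 ± 4.67 CPM. Ogdh, a TCA cycle dehydrogenase, had 154 to 188 CPM (median 170.1) in WT OB and 206 to 237 CPM (median 228) in null OB, which did not overlap, and the OC change was -0.93 (SE 0.06, adjusted p 4.32e-13). The OB change of Cs, citrate synthase, was 0.18 and did not pass with the length and GC offset. Of 30 oxidative phosphorylation subunits, 29 were lower in null OC, but in null OB 16 were lower and 2 higher, so that 15 were lower in both cultures and only Ndufs1 and Sdha were in the class. This OB result turned with the offset, which gave 5 higher and none lower in null OB, 5 in the class and none lower in both cultures.

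Other lists also held members of the class. Slc37a2, a sugar-phosphate transporter of macrophages and osteoclasts, was the 1 of 4 Slc37 genes in it, with 159.5 to 190.0 CPM (median 176) in WT OB, 210.4 to 297 CPM (median 258) in null OB, 1238 to 1460 CPM (median 1338) in WT OC and 103 to 138 CPM (median 119) in null OC. It separated the genotypes in both cultures. Ptch1, the Hedgehog receptor, was the 1 of 8 Hedgehog genes, with OB and OC changes of 0.88 (SE 0.20, adjusted p 0.00149) and -0.81 (SE 0.21, adjusted p 0.00134). Of 7 class II MHC genes, 5 were lower and 2 higher in null OC, and 2 were higher and 1 lower in null OB. Cd74, the invariant chain, and Ciita, the class II activator, were in the class. H2-DMb1, which helps to load peptides, was in the reverse class. Ciita and H2-DMb1 left their classes with the length and GC offset. Cd74 had 42.8 to 99.5 CPM (median 82.7) in WT OB and 66.9 to 179 CPM (median 107) in null OB, with overlap, and 333 to 414 CPM (median 372) against 41.2 to 56.0 CPM (median 50.3) in OC. The class II count was 1 without null OB replicate 1 or without null OB replicate 2, 4 without null OB replicate 6, and 3 with that offset. Lpl, a lipase listed as an adipocyte marker but high in macrophages too, and the long muscle gene Ttn were also members, and Ttn left the class with that offset.

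**Figure D4:**
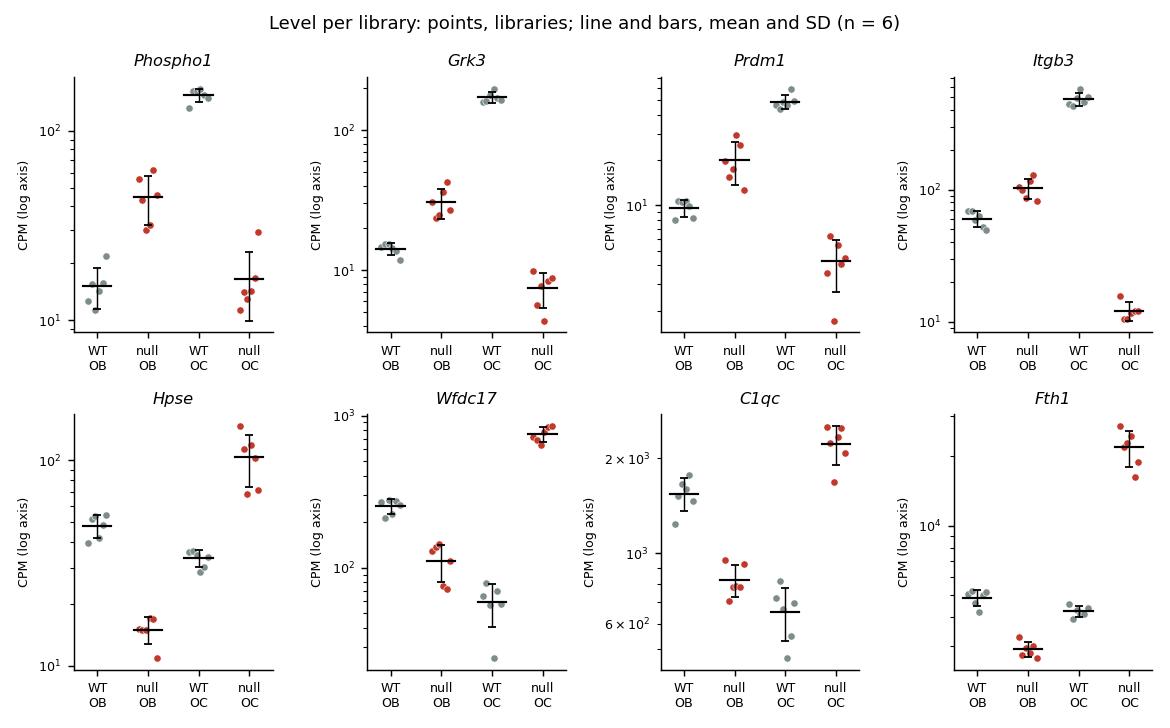
CPM (log axis) of 8 genes in each library of the 4 groups; points are libraries, lines means and bars SD (n = 6). In the top row null lies above WT in OB and below WT in OC; in the bottom row the order is reversed in both cultures.

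Of the genes lower in null OB and higher in null OC, the 12 leaders by the same ranking were Penk, Hpse, Wfdc17, Lyl1, Cd200r4, Ccl12, Bst2, Gdf15, Ms4a4a, Mmp27, Syngr1 and Fcgr2b, with absolute log2 fold changes of 0.97 to 1.84 in OB and 1.01 to 3.67 in OC. For all 12 the WT and null libraries did not overlap in either culture, which the ranking again favours and which was not counted over all genes tested. Penk, the precursor of enkephalins, is in the class by a very low OC level: it had 70.1 to 165 CPM (median 117) in WT OB and 6.02 to 52.7 CPM (median 35.6) in null OB but 0.145 to 0.364 CPM in WT OC and 0.372 to 1.32 CPM in null OC. Its OC change, 2.07 (SE 0.88, adjusted p 0.0460), was close to the threshold, and Penk kept its class in 19 of 36 other settings, 12 of them among the 24 fits that left out a library.

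Hpse, or heparanase, which cuts heparan sulfate chains, had 39.5 to 53.9 CPM (median 49.8) in WT OB and 10.9 to 17.1 CPM (median 15.0) in null OB, against 28.6 to 36.4 CPM (median 34.3) in WT OC and 68.8 to 147 CPM (median 108) in null OC (chromosome 5, 100679484 to 100719716, minus strand). Its levels in WT were near each other in the 2 cultures, and in null they were several-fold apart (difference of effects -3.32 (SE 0.21, adjusted p 5.24e-13)). Wfdc17, a small secreted protein with a whey acidic protein domain made by macrophages, had 212 to 280.1 CPM (median 265) and 72.4 to 144 CPM (median 119.5) in WT and null OB. In OC it had 25.4 to 79.5 CPM (median 61.7) and 643 to 852 CPM (median 753), the largest OC rise of the 12 (OB -1.19 (SE 0.20, adjusted p 1.11e-04), OC 3.67 (SE 0.21, adjusted p 3.97e-13)). Lyl1, a transcription factor of blood progenitors, fell from 25.6 ± 2.37 to 11.3 ± 2.88 CPM in OB and rose from 5.34 ± 0.682 to 28.5 ± 5.13 CPM in OC.

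Cd200r4, an activating receptor of the CD200 receptor family, had 12.4 to 18.2 CPM (median 16.0) and 5.43 to 8.83 CPM (median 7.22) in WT and null OB, and 9.71 to 13.7 CPM (median 11.5) and 70.2 to 82.1 CPM (median 75.5) in WT and null OC. Fcgr2b, the inhibitory Fc receptor for IgG, fell from 413 ± 34.8 to 211 ± 36.1 CPM in OB and rose from 61.5 ± 1.84 to 134 ± 19.2 CPM in OC. Gdf15, a cytokine induced by stress, went from 14.1 ± 1.85 to 6.47 ± 1.22 CPM in OB and from 12.9 ± 2.40 to 43.1 ± 8.86 CPM in OC, so the WT ranges of the 2 cultures overlapped and the null ranges did not. Bst2, or tetherin, which holds budding viruses at the membrane, had changes of -1.13 (SE 0.15, adjusted p 5.42e-06) and 1.36 (SE 0.15, adjusted p 1.56e-08). Mmp27, a matrix metalloproteinase, had -1.12 and 1.01, Ms4a4a, a membrane protein of macrophages, -1.04 and 1.78, and Syngr1, a vesicle membrane protein, -1.01 and 1.45 in OB and OC. Cd200r4, Ccl12 and Ms4a4a have close paralogs, and their estimated counts may share reads with them.

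Macrophage markers and complement genes followed the same order. Of 16 macrophage markers, 10 were lower and none higher in null OB, 12 were higher and 2 lower in null OC, and 8 were in the class, against 7.03% of all genes tested; medians were -0.49 in OB and 1.91 in OC. The count of 8 was 5 without null OB replicate 4, without null OB replicate 5, and with the length and GC offset. Adgre1, the F4/80 antigen, had 544 to 714 CPM (median 615) in WT OB and 372 to 527 CPM (median 414) in null OB, and 943 to 1030 CPM (median 980.5) in WT OC and 5415 to 8626 CPM (median 7140) in null OC. Lyz2, or lysozyme, which has a near-identical copy, fell from 11230 ± 1146 to 6399 ± 1298 CPM in OB and rose from 8267 ± 884 to 41310 ± 3111 CPM in OC. The M-CSF receptor Csf1r did not follow them: it had 568 to 683 CPM (median 660.0) in WT OB and 636 to 684 CPM (median 671) in null OB (adjusted p 0.585) and rose by 0.45 in OC. Cd14 and Aif1 were in the class with OB changes of -0.23 and -0.59 and OC changes of 2.52 and 2.03, and both left it with the length and GC offset. The macrophage marker sum, which is mostly Lyz2, shares 5 of its genes with these calls and moved with them in both cultures.

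Of 14 complement genes, 8 were lower and 1 higher in null OB, 10 were higher and 1 lower in null OC, and 7 were in the class, as they were in number with the offset. The 3 chains of C1q, which start the classical pathway, moved together. C1qc had 1241 to 1773 CPM (median 1559) in WT OB and 709 to 954 CPM (median 786) in null OB, and 466 to 817 CPM (median 681) in WT OC and 1679 to 2501 CPM (median 2280) in null OC. C1qa and C1qb fell in OB by 0.85 and 0.77 and rose in OC by 1.29 and 1.83 on the log2 scale. C3ar1, the receptor of the C3a fragment, fell from 313 ± 23.0 to 204 ± 23.1 CPM in OB and rose from 365 ± 16.3 to 1414 ± 121 CPM in OC.

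Chemokines and inflammatory genes had medians far apart in the 2 cultures. Of 21 chemokines and receptors, 12 were lower and 3 higher in null OB (7 lower with the length and GC offset), 16 were higher and 3 lower in null OC, and 10 were in the class (6 with that offset), with medians of -0.64 and 2.31. Cxcl16, a membrane-bound chemokine of macrophages, had 147 to 172 CPM (median 159.8) in WT OB and 112 to 143 CPM (median 122) in null OB, and 108 to 118 CPM (median 111) in WT OC and 697 to 801 CPM (median 744) in null OC. Its groups did not overlap in either culture. Ccl12 went from 16.9 ± 2.47 to 7.70 ± 1.53 CPM in OB and from 6.31 ± 1.29 to 28.4 ± 8.63 CPM in OC, and Ccl6 from 28.2 ± 6.53 to 16.1 ± 4.44 and from 35.9 ± 2.85 to 429.5 ± 42.1 CPM. Ccr1, a chemokine receptor of osteoclast precursors, went the other way, with 42.2 to 65.1 CPM (median 57.9) and 58.1 to 78.6 CPM (median 68.7) in WT and null OB, which overlapped, and a fall in OC from 558 ± 25.8 to 19.4 ± 3.01 CPM. The OB call of Ccr1 was lost without any 1 of 5 libraries (WT OB replicates 2 and 6, null OB replicates 1, 4 and 5) and with the length and GC offset.

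Of 16 inflammatory genes, 15 were higher and none lower in null OC, with a median of 4.51, while 5 were lower and 1 higher in null OB, with a median of -0.37. The 5 were in the class, and 3 were when WT OB replicate 5 or null OB replicate 4 was left out. Clec4e, a lectin receptor for microbial lipids, had 8.72 to 19.6 CPM (median 14.1) and 4.62 to 10.4 CPM (median 7.77) in WT and null OB and 7.15 to 13.4 CPM (median 9.39) and 182 to 244 CPM (median 217) in WT and null OC. The OB ranges of Clec4e overlapped and the OC ranges were far apart. Tlr2, a receptor for bacterial lipoproteins, fell in OB by 0.43 and rose in OC by 2.47. Saa3, an acute phase protein, had 3.27 to 14.1 CPM (median 5.03) and 2.16 to 5.75 CPM (median 3.43) in WT and null OB, and in OC rose from 0.209 ± 0.0516 to 213 ± 31.6 CPM; its OB call was lost in 5 of 24 fits that left out a library and with the length and GC offset. S100a8, a neutrophil marker, had 0 to 0.260 CPM in WT OC and 5.44 to 8.18 CPM in null OC. Of the 5 markers in the neutrophil sum only S100a8 was tested, and in null OC the sum was almost all S100a8. That sum lay between 0.0484 and 0.312 CPM in WT OC and between 5.57 and 8.18 CPM in null OC. Its part in these results was not tested.

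Genes of iron, heme and redox handling held many members of this class. Of 15 heme and iron genes, 10 were lower and none higher in null OB, 11 were higher and 2 lower in null OC, and 9 were in the class (10 with the length and GC offset), with medians of -0.42 and 1.54. Slc48a1, which carries heme out of the lysosome, had the second smallest interaction p, with 273 to 315 CPM (median 292) in WT OB and 199 to 231 CPM (median 224) in null OB, and 225 to 239 CPM (median 229) in WT OC and 1049 to 1176 CPM (median 1118) in null OC. The 4 groups did not overlap within a culture (OB -0.42 (SE 0.05, adjusted p 5.29e-07), OC 2.27 (SE 0.05, adjusted p 1.35e-22)). Fth1 and Ftl1, the chains of the iron store ferritin, fell in OB and rose in OC. Fth1 had 4872 ± 379.5 and 2907 ± 225 CPM in WT and null OB and 4242 ± 229 and 21890 ± 3871 CPM in WT and null OC, and Ftl1 had changes of -0.69 (SE 0.07, adjusted p 2.95e-08) and 1.5 (SE 0.07, adjusted p 1.00e-16). Both have many processed copies in the genome, which could take part of their counts. Slc11a1, a divalent metal transporter of the phagosome, went from 133 ± 11.8 to 93.9 ± 8.27 CPM in OB and from 189.9 ± 11.5 to 708 ± 80.0 CPM in OC.

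Of 16 NRF2 and redox genes, 8 were lower and 1 higher in null OB, 14 were higher and 2 lower in null OC, and 6 were in the class. Prdx1, a peroxidase, fell from 1490 ± 117 to 1044 ± 123 CPM in OB and rose from 1533 ± 268 to 10670 ± 1164 CPM in OC. Cybb, the catalytic subunit of the phagocyte NADPH oxidase, had 152 to 194 CPM (median 178) and 106 to 160.0 CPM (median 150.4) in WT and null OB, with overlap, and 152 to 180.4 CPM (median 166) and 1538 to 2032 CPM (median 1853) in WT and null OC. Ncf1, another oxidase subunit, and Cat, or catalase, had OB changes of -0.49 and -0.45 and OC changes of 1.97 and 1.96.

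Lysosomal genes split between the class and a common fall. Of 25, 13 were lower and 1 higher in null OB, 14 were higher and 7 lower in null OC, 8 were in the class and 4 were lower in both cultures. Ctsd, the aspartic protease cathepsin D, had 5089 to 6250 CPM (median 5436) in WT OB and 2932 to 3771 CPM (median 3278) in null OB, and 5069 to 5215 CPM (median 5096) in WT OC and 17140 to 20930 CPM (median 19300) in null OC. No WT library overlapped a null library of the same culture. Ctsb, cathepsin B, went from 7679 ± 522 to 5047 ± 405 CPM in OB and from 8488 ± 244 to 20600 ± 866 CPM in OC, and Lipa, the acid lipase, and Ctsz had OC changes of 1.21 and 0.32 beside OB changes of -0.29 and -0.34. The V-ATPase was divided by subunit. Of 18 subunits, 15 were lower and 2 higher in null OC, and 3 were higher and 8 lower in null OB (3 lower with the length and GC offset). Atp6v0d2 and Atp6v1b2 were higher in null OB and lower in null OC, whereas Atp6v0a1 and Atp6v0d1 were lower in null OB and higher in null OC. Atp6v0d1, the widely expressed form of the subunit that Atp6v0d2 encodes in osteoclasts, had 208 to 227 CPM (median 215) and 164 to 183 CPM (median 176) in WT and null OB and 291 to 319 CPM (median 307) and 346 to 449 CPM (median 406) in WT and null OC. Another 6 subunits were lower in both cultures, and 1 was with the length and GC offset.

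Some smaller groups also held members of the class, which took in 7.03% of all genes tested. Of 10 class I MHC presentation genes, 6 were lower and none higher in null OB, 5 were higher and 1 lower in null OC, and 3 (B2m, Tapbp and Psmb8) were in the class. B2m, the light chain of class I molecules, had 1070 to 1328 CPM (median 1230) in WT OB and 573 to 1229 CPM (median 648) in null OB, where 1 null library reached the WT range, and 748 to 1096 CPM (median 999) against 1254 to 1830 CPM (median 1387) in OC. Of 18 cell cycle genes, 5 were lower and 2 higher in null OB (2 and 0 with the length and GC offset), 10 were higher and 4 lower in null OC, and 4 (Rrm2, E2f1, Pcna and Cdk1) were in the class, which Pcna and Cdk1 left with that offset. The shares over all genes tested were 14.8% lower and 13.5% higher in null OB, and 33.4% higher and 28.9% lower in null OC. Rrm2, a subunit of ribonucleotide reductase, went from 101 ± 7.36 to 81.1 ± 5.51 CPM in OB and from 185 ± 5.42 to 330.3 ± 42.5 CPM in OC. Trem2, a lipid receptor of macrophages and the 1 osteoclast formation gene in this class (2 with the length and GC offset), fell from 288 ± 15.8 to 174 ± 19.7 CPM in OB and rose from 228 ± 12.5 to 796 ± 84.8 CPM in OC. Id2, an inhibitor of helix-loop-helix factors, was the 1 of 20 BMP and TGF-β genes, and it kept the class in only 17 of 36 settings. Sdf2l1, a chaperone component of the endoplasmic reticulum, was in the class as 1 of 18 genes of endoplasmic reticulum stress and secretion, and it left the class with the length and GC offset. For these lists of 20 and 18 genes, 1 member is near the share of all genes tested. Cebpa, a myeloid transcription factor listed with the adipocyte markers, had changes of -0.56 in OB and 2.14 in OC.

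**Figure D5:**
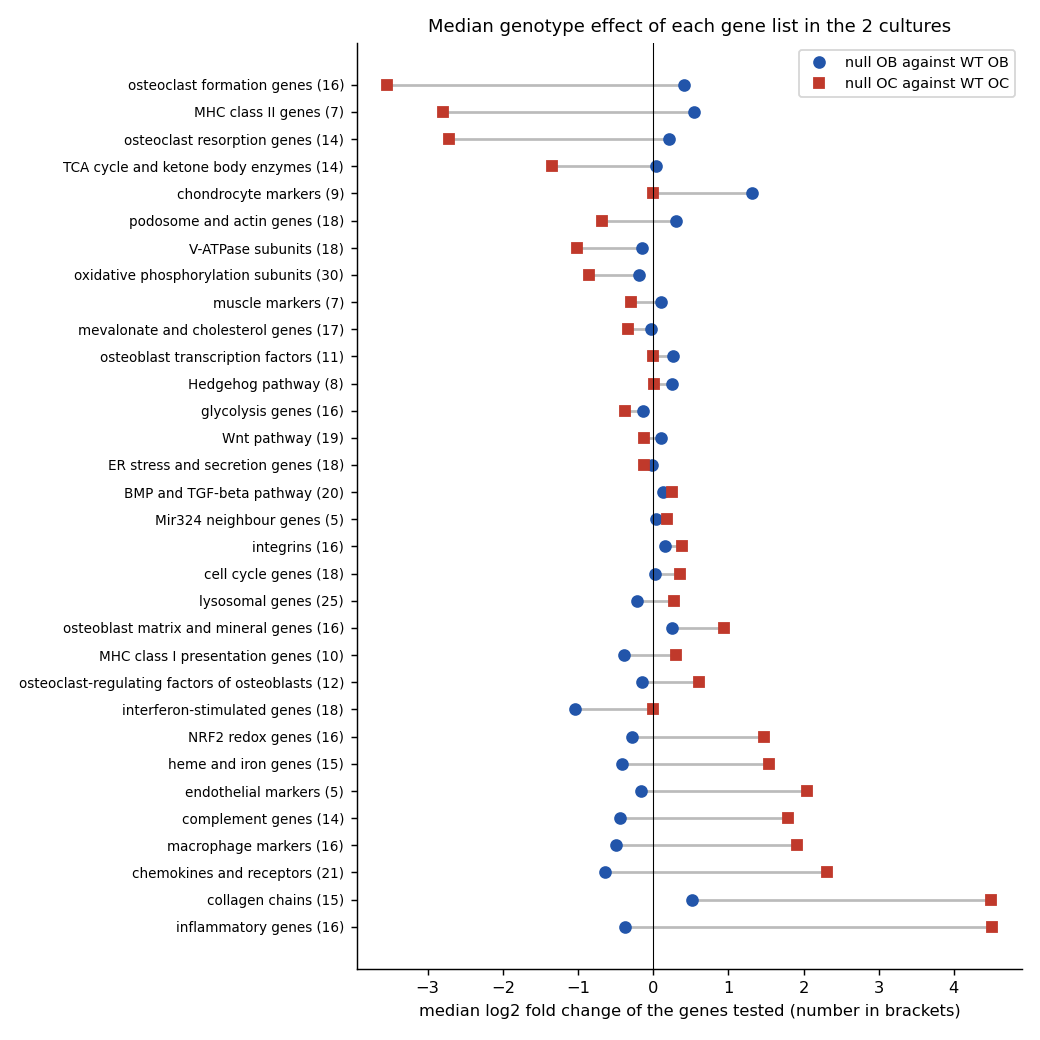
Median log2 fold change of null against WT over the tested genes of each list, in OB (circles) and OC (squares), ordered by the gap between cultures. The adipocyte, neutrophil, lymphocyte and Slc37 lists, with few genes tested, are left out. Osteoclast formation and resorption lists lie at or near the top, with OB medians of 0.41 and 0.21 and OC medians of -3.54 and -2.71. The class II MHC list (0.54 and -2.8) lies between them. Chemokine, macrophage and complement lists lie near the bottom with negative OB and positive OC medians, and the collagen list is positive in both.

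Other programs changed in 1 culture or the same way in both. Of 15 collagen chains, 10 were higher and none lower in null OB (5 and 1 with the length and GC offset), 11 were higher and 1 lower in null OC, and 7 were higher in both; only Col15a1 was of opposite sign. The count of 7 was 10 without null OC replicate 6, the library with the highest osteoblast marker sum, and 2 with the length and GC offset. Col1a1, the main bone collagen, had 31870 to 46870 CPM (median 33700) in WT OB and 55890 to 71940 CPM (median 67120) in null OB, but only 7.41 to 9.54 CPM (median 7.85) in WT OC and 45.4 to 187 CPM (median 75.3) in null OC. Col6a3 was among the 3 leaders higher in both cultures with Adam23 and Capn1, at 234 ± 20.9 and 516 ± 27.8 CPM in WT and null OB and at or near 0 in OC. There its ranges of 0 to 0.102 CPM in WT and 0 to 2.44 CPM in null overlapped. The OB call of Col6a3 was lost with DESeq2 (adjusted p 0.0821) and its OC call on log2(TPM + 1) (limma, adjusted p 0.136). Capn1, or calpain 1, a calcium-dependent protease, went from 3.21 ± 0.466 to 7.15 ± 1.55 CPM in OB and from 2.52 ± 0.701 to 30.2 ± 3.68 CPM in OC. Of 16 osteoblast matrix genes, 4 were higher and 1 lower in null OB, and Phospho1 alone was of opposite sign. Alpl had 157 to 396 CPM (median 166) and 213 to 400.5 CPM (median 310.0) in WT and null OB (adjusted p 0.0772) and Bglap 8.72 to 22.4 CPM (median 17.8) and 4.38 to 23.3 CPM (median 9.45) (adjusted p 0.338). Runx2, a master factor of the osteoblast, was 26.0 ± 5.05 and 38.2 ± 3.51 CPM in WT and null OB with an OC change of -0.19 (SE 0.14, adjusted p 0.228), and the difference of effects was 0.74 (SE 0.18, adjusted p 8.22e-04).

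Of 9 chondrocyte markers, 7 were higher in null OB and none lower, with a median of 1.31, and in OC 1 was higher. Col11a2, a chain of cartilage collagen, had 4.70 to 22.0 CPM (median 6.46) in WT OB and 23.4 to 152 CPM (median 81.8) in null OB, against at most 1.32 CPM in OC. Of 18 interferon-stimulated genes, 10 were lower and none higher in null OB, 2 were higher and 4 lower in null OC, and medians were -1.04 and 0.00; Bst2 alone was of opposite sign and Rtp4 alone was lower in both. With the length and GC offset 2 were of opposite sign and 0 lower in both. The count of 10 fell to 3 without null OB replicate 1, to 5 without null OB replicate 2, 3 or 4 or WT OB replicate 1, and to 6 without WT OB replicate 6. Without null OB replicate 5, all 18 were lower in null OB (median -1.56), 2 were of opposite sign and 4 were lower in both. Rtp4, a receptor transporter induced by interferon, had 52.1 to 81.2 CPM (median 64.8) in WT OB and 12.5 to 75.3 CPM (median 14.4) in null OB, where replicate 5 lay in the WT range, and 48.2 to 77.8 CPM (median 57.0) against 7.68 to 27.5 CPM (median 16.3) in OC. The OB calls of Rtp4 and Ifi27l2a were lost with the length and GC offset and in 6 of the 24 fits without a library. Pgam2, the other leader lower in both, had 61.4 to 86.4 CPM (median 82.3) and 17.4 to 46.3 CPM (median 31.8) in WT and null OB and at most 1.46 CPM in OC, where the genotypes overlapped. Its OC call was lost with limma-voom (adjusted p 0.169) and without any 1 of 5 libraries (WT OC replicates 2 and 3, null OC replicates 4, 5 and 6). No gene of either opposite class, which together held 12.6% of all genes tested, was among 12 osteoclast-regulating factors, 19 Wnt genes, 11 osteoblast transcription factors or 16 glycolysis genes tested. The 5 endothelial, 3 neutrophil and 3 lymphocyte markers tested held none either. With the length and GC offset 2 Wnt genes were lower in null OB and higher in null OC. Without null OB replicate 6, 1 glycolysis gene was higher in null OB and lower in null OC.

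Among the 5 neighbours of Mir324 on chromosome 11, only Gabarap was of opposite sign. Gabarap (chromosome 11, 69991143 to 69994951, plus strand), a protein of autophagosome growth, had 522 to 575 CPM (median 531) in WT OB and 379.6 to 474 CPM (median 401) in null OB, and 249.6 to 279 CPM (median 269) in WT OC and 326 to 409.5 CPM (median 373) in null OC. Its groups did not overlap in either culture (difference of effects -0.86 (SE 0.09, adjusted p 2.55e-09)). Acadvl, whose locus holds the hairpin, differed in effect by 0.35 (SE 0.08, adjusted p 5.01e-04) and Dlg4 by -3.82 (SE 0.34, adjusted p 2.16e-10), where Dlg4 had at most 0.281 CPM in WT OC. Phf23 and Dvl2 did not pass the interaction test in this fit (0.21 (SE 0.09, adjusted p 0.0547) and -0.10 (SE 0.12, adjusted p 0.476)), and Phf23 passed it under 20 of the other settings. Acadvl and Dvl2 lie across each other on the 2 strands, and strand use in counting is not given in the sources used here, so their values are uncertain.

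The BMM libraries, which the interaction does not use, were set beside the classes as a description. Of the 785 genes higher in null OB and lower in null OC, 735 were tested in BMM, where 12.1% were higher and 47.2% lower in null, against 27% and 25.4% of all genes tested in both fits. In the BMM fit itself, 52.3% of 11925 genes passed. Of the 989 genes of the reverse class, 979 were tested, and 43.6% were higher and 25% lower in null BMM. The BMM shares thus leaned in the direction of the OC effect in both classes. The 3 genotype comparisons share no library, but BMM and OC are both marrow cultures with M-CSF. The labels do not name the mouse, so the BMM and OC comparisons may not be independent. The WT levels of the classes also differed: 64.0% of the genes lower in null OB and higher in null OC were higher in WT OB than in WT OC.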

How the data were processed

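Total RNA of 24 OB and OC cultures (6 libraries a group) was sequenced; groups come from the labels. Per the submitters' processing notes, kallisto and DESeq2 were used (versions not given in the sources used here). The notes name the human build GRCh38 although the transcripts are mouse, so the build is not settled by them. Per the file headers, the deposited tables give an estimated count and a TPM value for each of 88198 transcripts. Of these, 97.5% matched GENCODE M21 (GRCm38) by identifier, and the rest held 0.63% to 0.97% of a library's counts and were left out. Names, lengths and gene coordinates come from that annotation, and promoter and microRNA sequences from RefSeq.

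Here estimated counts were summed to 30205 genes and rounded. Genes kept by filterByExpr (14062) were scaled by TMM and tested by the quasi-likelihood test of edgeR 4.0.16 (robust) in R 4.3.3, with 1 mean for each of 4 groups. The contrasts were null against WT in OB, the same in OC, and their difference. Benjamini-Hochberg adjustment ran over the 14062 genes, with a threshold of 0.05. A gene was of an opposite class when both genotype contrasts and the interaction passed with opposite signs. BMM libraries were fitted alone (11925 genes). CPM values carry the depth of 14118972 to 26347581 counts per library. Steps were tested on simulated data.

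Named genes were, among those with a mean of at least 10 CPM, the 12 of each opposite class and the 3 of each same-sign class with the largest smaller change, then the 3 with the smallest interaction p, up to 4 opposite-class members of each list (or 2 members where there was none), 5 Mir324 neighbours and 7 markers. The members and lists were chosen with earlier results of these data known, so lists are described by counts and medians and not tested. Other settings tried were DESeq2 1.42.0, RLE scaling, limma-voom with quality weights (limma 3.58.1), dropping the filter, requiring 10 counts in the mean, limma on log2 of the deposited TPM plus 1, offsets for length and for length with GC content (lowess span 0.3), a replicate block, all 36 libraries, a 2-fold minimum and leaving out each library. TPM centred on the median gene was added after seeing the data. Some named genes are not reported here.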

Additional observations from a re-analysis of the deposited data

Results flagged for a closer look

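The genotype effect differed between OB and OC cultures by the interaction test for 7920 genes, and 785 and 989 genes passed it with effects of opposite sign. Libraries were also examined for 1 value far from the other 5 of its group, in 148 groups of 6 libraries; 9 had one, and chance flags about 5% of such groups. Phospho1 was 29.2 CPM in null OC replicate 6, where the next library had 16.8. The osteoblast marker sum was 277 CPM in the same library and 108 in the next. Prdm1 was 59.6 CPM in WT OC replicate 5 against 49.2 in the next. Penk was 0.364 CPM in WT OC replicate 1 against 0.225. Hpse was 10.9 CPM in null OB replicate 6, where the nearest library had 14.9. Lyl1 was 20.9 CPM in WT OB replicate 4 against 25.8, and 4.03 CPM in WT OC replicate 5 against 5.30. Mmp27 was 14.6 CPM in WT OB replicate 3 against 11.5. The chondrocyte marker sum was 568 CPM in WT OB replicate 6 against 354. All these genes except Penk kept their class in each of the 24 fits that left out a library.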

How the results depend on the processing

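The limits are that the OB effect moves with transcript length, that the labels name no batch, and that depth does not resolve genes near 0 in OC. Leaving out each library gave 7712 to 8051 interaction genes, 3390 to 4421 in OB, 8432 to 8838 in OC, 640 to 848 and 888 to 1024 in the opposite classes, and 836 to 1179 of the same sign. The offset for length and GC content gave 2010 genes in OB, 397 in the first opposite class and 368 of the same sign; with the replicate block it gave 1827, 354, 655 in the second class and 311. The replicate block alone gave 7724 interaction genes; same-numbered libraries correlated between -0.115 and 0.107, so the numbers do not pair them. On log2(TPM + 1) the classes held 1945 and 333 genes: that scale moved the median gene by 0.14 in OB and -0.13 in OC, and 82% of OB calls and 32.5% of OC calls were then higher in null, against 47.6% and 53.6%; centred on the median gene, 733 and 871 remained by number. The 2-fold minimum left 36, 35 and 31. With the replicate block the OC call of Pgam2 was lost (edgeR adjusted p 0.0511), and with the block and the length and GC offset together the OB calls of Akap6 (0.0812) and Kbtbd11 (0.0575) and the class of Ptch1 were. Interactions that turned sign were those of Adam23 (TPM 0.587, centred 0.231), Col6a3 (1.09 and 0.737), Dvl2 (TPM 0.227), Csf1r (TPM 0.053), Bglap (voom -0.093, TPM -0.201, centred -0.557), Alpl (TPM 0.711, centred 0.355) and Pgam2 (TPM -0.226, centred -0.582, replicate block -0.019, block within genotype -0.05, and -0.29 to 0.65 without 1 library). Of the values for named genes, 7033 stayed on their side of the threshold, 67 lost it, 21 gained it and 25 turned sign; the cause was not tested.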
